A study of Mus musculus with 12 samples.

Results

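The genes described here are the receptor for adrenocorticotropic hormone (ACTH), its 2 accessory proteins and 6 transcription factors and coregulators of the adrenal cortex, 9 of the 39017 genes counted. They were chosen by symbol, namely *Mc2r*, *Mrap*, *Mrap2*, *Nr5a1*, *Nr5a2*, *Nr0b1*, *Gata4*, *Gata6* and *Cited2*, and each matched 1 Ensembl identifier. RNA was taken from the whole adrenals, trimmed of fat, of 12 female mice aged 10 to 11 weeks on a mixed sv129 and C57Bl/6 background, with 1 library per sample, and each sample is called a mouse here. The 6 controls (Ctrl) had the genotype ASCre/+, and the 6 βCat-GOF mice had this allele together with Ctnnb1fl(ex3)/+. The sample titles call the controls wild type (Wt_Ctr), while their genotype label gives the Cre allele. By the genotype labels all 12 mice carried Cre at 1 allele of *Cyp11b2*, the aldosterone synthase (AS) locus, and only the βCat-GOF mice carried the allele whose exon 3 Cre removes, which stabilizes β-catenin. Cre from this locus acts from birth in aldosterone-producing cells of the zona glomerulosa (zG), the outer layer of the cortex, and cells that later move inward to the zona fasciculata (zF) keep the recombined allele. The mice are numbered here within each group in the order of their deposition. The comparison asks how the machinery for ACTH sensing and adrenal identity stands when β-catenin is stabilized in the zG.

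ACTH from the pituitary binds the melanocortin 2 receptor (MC2R) on cortical cells, which raises cAMP and drives glucocorticoid synthesis. MC2R reaches the cell surface only with the help of the melanocortin 2 receptor accessory protein, MRAP. Steroidogenic factor 1 (SF-1), the product of *Nr5a1*, is the nuclear receptor that directs adrenal development and the transcription of most steroidogenic genes, and DAX-1 (*Nr0b1*), the GATA factors and CITED2 act with it or against it.

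The libraries held between 13484675 and 25625494 counted reads, and the ranges of the 2 groups overlapped. Markers of the cortical zones, the medulla, the capsule, endothelium, macrophages and adipocytes were all present. The summed counts of 10 zG markers were higher in every βCat-GOF mouse (74234 to 94640 normalized counts) than in any control (58060 to 73010). Of the 9 zG markers tested singly, 4 were higher at an edgeR adjusted p under 0.05 and 0 were lower. Their median log2 fold change was 0.79, and only that of *Cyp11b2* was below 0 (-0.18, edgeR adjusted p = 0.82). The 6 zF markers spread far more in βCat-GOF adrenals (182805 to 555232) than in Ctrl (308643 to 384434). βCat-GOF mouse 1 had the lowest zF sum of the 12 mice, 182805, and a high zG sum, 93370. The sums of the other lists overlapped between the groups. Within these lists, 2 of 8 macrophage markers and 1 of 4 X-zone markers tested were lower at that adjusted p. Of all genes tested, 1.52% were lower. All 8 endothelial markers had a lower mean in βCat-GOF adrenals, and 0 of them passed. Mouse 1 stood apart from the other βCat-GOF mice in several genes below. Values without it are given where they change a call or where that mouse alone lay below every control. As that mouse was picked out by its values in these genes, a fit without it gives them no separate support. As the RNA came from the whole gland, fewer cells of a type and less RNA per cell cannot be told apart. All 6 controls carry one number in their labels and 5 of the βCat-GOF mice another, so genotype and label number cannot be told apart. The labels of 3 pairs of samples, 2 in Ctrl and 1 in βCat-GOF (mice 1 and 2), share a stem, and no source used here says how such samples are related. Counts per gene do not show whether exon 3 of *Ctnnb1* was removed. The p-values below set the difference between groups against the spread between samples within them. They take the samples as independent, which the shared stems leave unsure.

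Of the 9 genes only *Gata6* shares exon bases with another annotated gene, 1.43% of them, which lie opposite 1010001N08Rik. No other transcript matched any of the 9 at 95% identity over 10% of its length. RefSeq promoter windows on GRCm38.p6, from 250 bases before to 50 bases after a transcription start, matched 4 of the genes with 5 windows, namely *Mrap2*, *Nr5a2*, *Nr0b1* and *Cited2*. They were searched on both strands for AAGGTCA, to which SF-1 binds, which 4.72% of all 32817 windows of this length held. The GATA site AGATAA was held by 11.2% of all windows. The TCF/LEF site ATCAAAG was held by 3.73%, and TGACG, the core of a cAMP response element, by 20.8%. The 2 windows with a match are shown 5′ to 3′ along the gene, with the matched letters in capitals. The *Mrap2* window, chr9:87144056-87144355 on the plus strand, holds AAGGTCA on the opposite strand, starting 242 bases before the start site. A window of *Nr5a2*, chr1:136960399-136960698 on the minus strand, holds AGATAA at 2 positions, also on the opposite strand. The TCF/LEF and cAMP response element letters were in none of the 5 windows, and the windows of *Nr0b1* and *Cited2* held no match.
Mrap2: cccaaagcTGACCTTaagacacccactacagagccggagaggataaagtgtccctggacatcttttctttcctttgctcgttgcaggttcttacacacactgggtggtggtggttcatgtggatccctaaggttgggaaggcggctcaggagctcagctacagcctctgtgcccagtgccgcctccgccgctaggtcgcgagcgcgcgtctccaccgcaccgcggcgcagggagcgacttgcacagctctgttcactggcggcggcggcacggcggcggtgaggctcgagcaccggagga
Nr5a2: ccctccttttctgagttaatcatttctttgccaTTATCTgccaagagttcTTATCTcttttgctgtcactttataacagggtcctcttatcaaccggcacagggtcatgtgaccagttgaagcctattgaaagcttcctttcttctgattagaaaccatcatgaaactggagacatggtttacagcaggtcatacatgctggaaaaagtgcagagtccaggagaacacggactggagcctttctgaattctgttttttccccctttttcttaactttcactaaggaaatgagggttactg

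The receptor and SF-1 were among the most abundant transcripts of the gland, and *Nr5a2* was near the bottom of the genes measured. Normalized counts are counts divided by the median-of-ratios factor of each library, and they were divided by the kilobases of exon to compare genes. In Ctrl adrenals *Mc2r* was highest, at 5905 ± 436 normalized counts per kb (SD, n = 6 mice), which placed it at rank 91 of 14827 genes. *Nr5a1* followed at 3557 ± 730 and *Mrap* at 2325 ± 416, and the ranges of these neighbours overlapped (2641 to 4493 and 1728 to 2865). *Cited2* had 646 ± 117 per kb, *Nr0b1* 309 ± 87.4 and *Gata6* 192 ± 26.9, and the last 2 of these overlapped (188 to 445 and 166 to 232). At the low end were *Mrap2* with 33.9 ± 22.6, *Gata4* with 20.1 ± 6.19 and *Nr5a2* with 5.16 ± 1.1 normalized counts per kb. *Mrap2* and *Gata4* overlapped, while every value of *Nr5a2* lay below every value of *Gata4*. With the length of the longest transcript in place of all exons, *Nr5a1* came to 5038 ± 1033 and overlapped *Mc2r*, and *Gata6* came to 331 ± 46.3, above the mean of *Nr0b1* with overlap. The plot of levels per length shows that in βCat-GOF adrenals *Mrap*, at 4801 ± 1786, moved up beside *Nr5a1*, at 4178 ± 870.

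**Figure D1:**
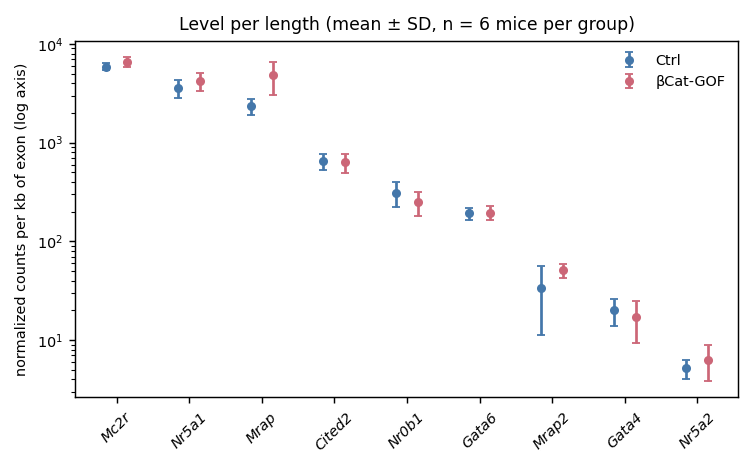
Level of each gene as normalized counts per kilobase of exon, on a log axis, for Ctrl (blue) and βCat-GOF (red) adrenals. Points are means and bars SD over 6 mice; *Mc2r* is highest, at 5905 in Ctrl, *Nr5a2* lowest, at 5.16, and the 2 groups are farthest apart for *Mrap*.

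*Mrap* was the only one of the 9 genes that changed by edgeR's quasi-likelihood test, with a higher level in βCat-GOF adrenals. A gene was called at an adjusted p under 0.05, which 2.16% of the 14953 genes tested passed as higher and 1.52% as lower. All 9 genes passed the filter on low counts, 1 was called higher and 0 were called lower, and DESeq2 also gave 1 and 0. At an unadjusted p under 0.05 there was again 1 of the 9, *Mrap*, where 20.4% of all genes lay. The median log2 fold change of the 9 was 0.16, against 0.000105 for all genes tested. In none of the 9 did the groups fully separate, while across all genes tested 1.61% had the whole βCat-GOF group above Ctrl and 1.16% had it below. *Mrap* also met the study's additional cut-offs, a fold above 1.4 and a base mean, the mean normalized count of all 12 mice, above 100, which 1.48% of the genes tested met in the upward direction. The plot of fold changes gives all 9 genes with their intervals.

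**Figure D2:**
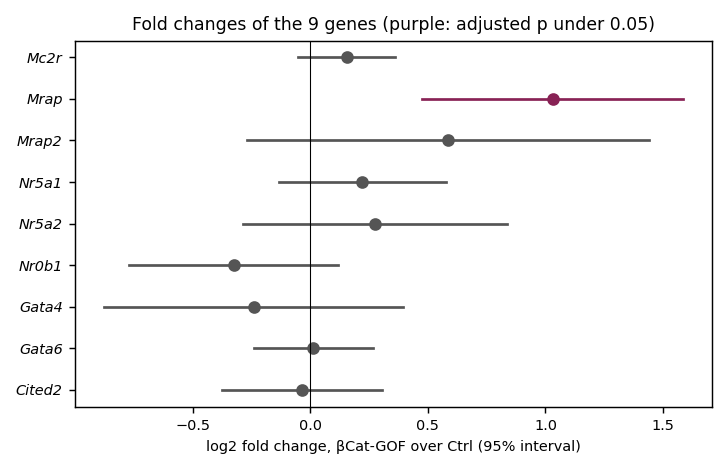
Log2 fold change of each gene, βCat-GOF over Ctrl, with its 95% interval from edgeR's quasi-likelihood fit of 6 against 6 mice. Only the interval of *Mrap*, 0.48 to 1.59, lies wholly to one side of 0.

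*Mrap* (ENSMUSG00000039956; chromosome 16, 90738207 to 90749785, plus strand) is given, as the genes after it, with its position on GRCm38, the mm10 assembly. In the controls it had 4309, 3417, 2732, 3398, 4530 and 3671 normalized counts. The βCat-GOF mice had 2377, 6261, 8958, 9029, 9368 and 9549. Thus 5 of the 6 βCat-GOF mice lay above every control, 4 of them close together between 8958 and 9549, and βCat-GOF mouse 1 was the lowest of all 12. The means were 3676 ± 658 and 7590 ± 2824 (SD, n = 6 each), a 2.04-fold rise with a 95% interval of 1.39 to 3.00 (log2 fold change, log2FC, 1.03, standard error, SE, 0.26, edgeR adjusted p = 0.0433). An exact permutation test on the normalized counts of this gene gave p = 0.0173 (two-sided, unadjusted). Without βCat-GOF mouse 1 the log2FC was 1.23 (SE 0.14, edgeR adjusted p = 0.00053). Without the 3 samples whose label repeats a stem it was 1.19 (edgeR adjusted p = 0.002), but βCat-GOF mouse 1 is 1 of these 3. Each of the other 11 fits that left out 1 mouse kept the direction but not the call, with adjusted p between 0.051 and 0.097. DESeq2 without shrinkage gave an adjusted p of 0.0026. The summed zF markers were also lowest in βCat-GOF mice 1 and 2 (182805 and 260680) and ran from 366299 to 555232 in the other 4. *Akr1b7* is one of these 6 markers and the only one called, and 4 of the 6 had a lower mean in βCat-GOF adrenals (median log2FC of the list -0.22). Sums without *Akr1b7*, a choice made after seeing the data, were 269696 to 335738 in controls. In βCat-GOF mice 1 to 6, in order, they were 156574, 204311, 334369, 379201, 220582 and 321494. Mouse 5, whose *Mrap* was 9368, thus lay below every control, as did mice 1 and 2. The part of zF cell number in the *Mrap* difference was not tested.

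**Figure D3:**
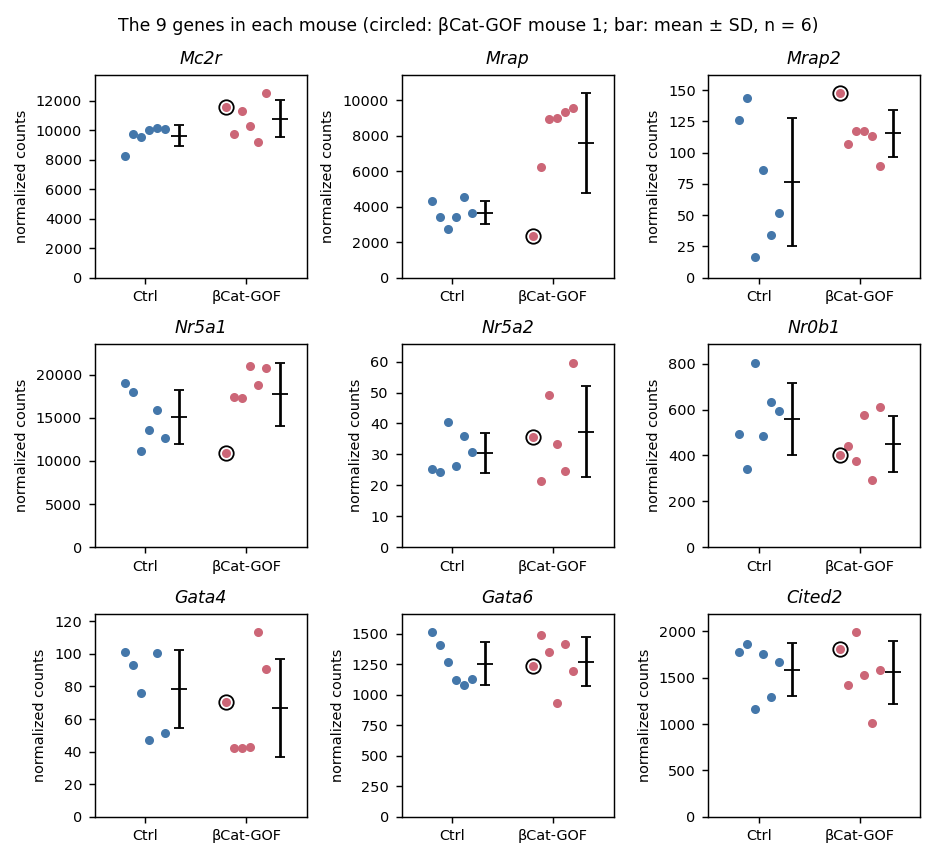
Normalized counts of each gene in every mouse, Ctrl (blue) and βCat-GOF (red), on linear axes that start at 0, with mean and SD beside the points (n = 6 mice each) and βCat-GOF mouse 1 circled. For *Mrap* 5 βCat-GOF mice lie above all controls and mouse 1, at 2377, lies below them, while in the other 8 panels the groups overlap more.

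*Mc2r* (ENSMUSG00000045569; chromosome 18, 68406907 to 68429320, minus strand), which encodes the ACTH receptor itself, was not called. Controls had 8255 to 10146 normalized counts (median 9892) and βCat-GOF mice 9193 to 12540 (median 10837). In 4 of the 6 βCat-GOF mice the level was above that of all controls, yet the ranges overlapped. The means were 9631 ± 711 and 10792 ± 1250 (SD, n = 6 each), a fold of 1.11 with a 95% interval of 0.965 to 1.29 (edgeR adjusted p = 0.387). A doubling like that of *Mrap* is outside this interval. The proportion of accessory protein to receptor transcripts varied more among βCat-GOF mice than among controls, and its difference between groups was not tested. Per kb, *Mrap* reached 0.397 ± 0.0874 times the level of *Mc2r* in Ctrl adrenals, with single mice between 0.296 and 0.538. In βCat-GOF mice 2 to 6 this ratio was 0.661, 0.814, 0.902, 1.05 and 0.786, above every control, and in mouse 1 it was 0.212, below every control.

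*Mrap2* (ENSMUSG00000042761; chromosome 9, 87144306 to 87184045, plus strand) encodes a second accessory protein, known above all for its action on melanocortin 4 receptor in the brain. It was scarce, at 1.45% ± 0.98 of the level of *Mrap* per kb in Ctrl (SD, n = 6) and 1.48% ± 1.42 in βCat-GOF adrenals. The 6 controls had 126, 143, 16.8, 86.1, 34.1 and 51.7 normalized counts. The βCat-GOF mice kept to a narrower range, 89.6 to 148 (median 115). The control spread, a coefficient of variation of 66.8% against 16.4%, was the widest of the 9 genes. Its log2FC was 0.59 with a 95% interval of -0.27 to 1.44 (edgeR adjusted p = 0.434), so that a doubling and a small fall both lie inside it. In βCat-GOF mouse 1, *Mrap2* was the highest of the 12 mice and *Mrap* the lowest.

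*Nr5a1* (ENSMUSG00000026751; chromosome 2, 38692656 to 38714542, minus strand) had 11199 to 19055 normalized counts in controls (median 14779) and 10947 to 21035 in βCat-GOF mice (median 18113). Mouse 1 was again the lowest of all 12, and the other 5 βCat-GOF mice had 17275 or more, within or above the upper part of the control range. The fold was 1.17 with a 95% interval of 0.911 to 1.49 (edgeR adjusted p = 0.483), and without mouse 1 the log2FC was 0.34 (SE 0.14, edgeR adjusted p = 0.161). *Nr5a2* (ENSMUSG00000026398; chromosome 1, 136842571 to 136960448, minus strand), the related receptor LRH-1 of liver and ovary, was nearly silent in comparison. Its normalized counts ran from 24.2 to 40.4 in Ctrl and from 21.4 to 59.7 in βCat-GOF mice, and its log2FC was 0.28 with a 95% interval of -0.29 to 0.84 (edgeR adjusted p = 0.593). Per kb, *Nr5a1* exceeded *Nr5a2* by between 386 and 1048 times in Ctrl adrenals and between 428 and 1128 times in βCat-GOF adrenals.

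*Nr0b1* (ENSMUSG00000025056; chromosome X, 86191764 to 86195947, plus strand) encodes DAX-1, which represses transcription driven by SF-1 and is linked to Wnt signaling in the outer cortex. Its normalized counts ran from 339 to 805 in controls (median 544) and from 293 to 611 in βCat-GOF mice (median 420). Only βCat-GOF mouse 5 lay outside the control range, below it. Its log2FC was -0.32 with a 95% interval of -0.77 to 0.12 (edgeR adjusted p = 0.401). *Nr0b1* was thus lower on average in the group in which the sum of the zG markers was higher, by an amount within the spread between mice.

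The GATA factors were unequal in level and alike in giving no call. *Gata6* (ENSMUSG00000005836; chromosome 18, 11052064 to 11085635, plus strand), the main GATA factor of the adult cortex, had 1253 ± 175 normalized counts in Ctrl (SD, n = 6) and 1271 ± 200 in βCat-GOF mice (n = 6). Its 95% interval of the fold, 0.847 to 1.20, was narrower than that of any other of the 9 except *Mc2r* (edgeR adjusted p = 0.966). *Gata4* (ENSMUSG00000021944; chromosome 14, 63198922 to 63271692, minus strand) is active in the fetal adrenal and in gonadal cells. Controls had 101, 93.4, 76.2, 47.3, 101 and 51.7 normalized counts and βCat-GOF mice 70.3, 41.9, 42.1, 42.7, 113 and 90.7. Of the βCat-GOF mice 3 lay below every control and 1 above, and the log2FC was -0.24 with a 95% interval of -0.88 to 0.39 (edgeR adjusted p = 0.696). *Gata6* was 10.3 ± 2.88 times as abundant as *Gata4* per kb in Ctrl and 13.3 ± 5.84 times in βCat-GOF adrenals.

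*Cited2* (ENSMUSG00000039910; chromosome 10, 17723218 to 17725674, plus strand), a coactivator that raises *Nr5a1* expression in the adrenal primordium together with WT1, is annotated here with a single block of exon sequence. Controls had 1162 to 1865 normalized counts (median 1716) and βCat-GOF mice 1007 to 1993 (median 1559). The fold was 0.976 with a 95% interval of 0.772 to 1.24 (edgeR adjusted p = 0.929).

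Across the 12 mice, with the group means removed, the 6 genes with a base mean above 100 gave 15 pairs. *Mrap* and *Nr5a1* had the highest correlation, with Pearson's r = 0.812 (permutation p = 0.0047, adjusted over the 15 pairs 0.071) and Spearman's rho = 0.58 (permutation p = 0.021, adjusted 0.322). Neither passed after adjustment. Without the 2 mice farthest from the median of *Mrap* r fell to 0.405, while within the 6 controls it was 0.689 and within the 6 βCat-GOF mice 0.945. The last value includes βCat-GOF mouse 1, which was the lowest of all 12 mice for both genes. *Mc2r* and *Mrap* gave r = -0.289 and rho = -0.0629 (permutation p = 0.522 and 0.87, adjusted 0.883 and 0.932). The genes whose log2 CPM followed each of these 6 most closely among mice were listed from 11431 genes, as a description of the highest values found and with no test. *Mrap* was followed by *Apoc1* (r = 0.95), *Slc41a3* (r = 0.94) and *Cebpz* (r = 0.933). *Nr5a1* was followed by *Dlst* (r = 0.941) and *Ogdh* (r = 0.935), which encode subunits of the 2-oxoglutarate dehydrogenase complex, and by *Abcb8* (r = 0.93). The closest to *Mc2r* was *Zmym4* (r = 0.938), to *Nr0b1* *Cyb5d1* (r = 0.867), to *Gata6* *Deptor* (r = 0.91), an inhibitor of mTOR, and to *Cited2* *Pyroxd1* (r = 0.885).

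Downstream of the receptor, 1 of 23 genes of ACTH and cAMP signaling was called higher and 0 lower, beside the 3.68% of all genes called in either direction. The median log2 fold change of the list was -0.02, and 3 of its genes had an unadjusted p under 0.05, where 20.4% of all genes lay. The gene called was *Crem*, whose cAMP-induced short products repress cAMP-responsive genes. Controls had 774, 708, 999, 769, 808 and 764 normalized counts of *Crem*. The βCat-GOF mice had 585, 3836, 3008, 2258, 3793 and 4109. As with *Mrap*, 5 βCat-GOF mice lay above every control and mouse 1 below all of them. Its log2FC was 1.85 (SE 0.33, edgeR adjusted p = 0.00701), and it was called in all 12 fits that left out 1 mouse. Without βCat-GOF mouse 1 it was 2.08 (SE 0.14, edgeR adjusted p = 9.04e-06). Counts per gene do not separate the short products from the full-length activator. *Gnas*, which encodes the stimulatory G protein α subunit coupled to the receptor, had a log2FC of 0.04 (edgeR adjusted p = 0.899). Of the other melanocortin receptors *Mc1r*, *Mc3r*, *Mc4r* and *Mc5r*, none passed the filter on low counts or had more than 5 counts in a mouse. *Pomc*, which encodes the precursor of ACTH, had 11.7 ± 3.20 normalized counts in Ctrl and 9.54 ± 3.50 in βCat-GOF adrenals (edgeR adjusted p = 0.627).

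Among 17 steroidogenic and cholesterol-handling genes, many of them SF-1 targets, 1 was called higher and 0 lower, beside 3.68% of all genes called in either direction. Of the 17, 4 had an unadjusted p under 0.05, where 20.4% of all genes lay, and the median log2 fold change was 0.11. The gene called was *Akr1b7*, an ACTH-responsive aldose reductase of the zF. It had 32372 to 52148 normalized counts in controls. The βCat-GOF mice had 26231, 56370, 141489, 176031, 145717 and 206331. Here too 5 of them exceeded every control and mouse 1 fell short of all (log2FC 1.48, SE 0.38, edgeR adjusted p = 0.0458), and the call held in 2 of the 12 fits that left out 1 mouse, those without βCat-GOF mouse 1 or 2. *Scarb1*, the receptor that takes up cholesterol from high-density lipoprotein, ran from 28151 to 32804 in controls and from 13482 to 91011 in βCat-GOF mice, with mouse 1 the lowest (log2FC 0.86, SE 0.32, edgeR adjusted p = 0.159). *Fdx1*, the electron donor of the mitochondrial P450 enzymes, ran from 8785 to 14429 in controls. It had 6645 in βCat-GOF mouse 1 against 16254 to 27924 in the other 5 (log2FC 0.77, SE 0.26, edgeR adjusted p = 0.115). Without βCat-GOF mouse 1 the genes called in this list included *Akr1b7* (edgeR adjusted p = 0.0024), *Fdx1* (0.004), *Scarb1* (0.0076) and *Star* (0.042). That mouse was the lowest of the 12 in each of these genes. *Fdx1*, *Scarb1* and *Star* were called in only 1 of the 12 fits that left out 1 mouse, this one. *Cyp11a1*, which makes the first cut in the cholesterol side chain, had 148399 ± 34507 normalized counts in Ctrl and 147654 ± 37872 in βCat-GOF adrenals (log2FC -0.02, SE 0.20, edgeR adjusted p = 0.97). The plot relative to the Ctrl mean sets these genes beside *Mc2r* and *Nr5a1*.

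**Figure D4:**
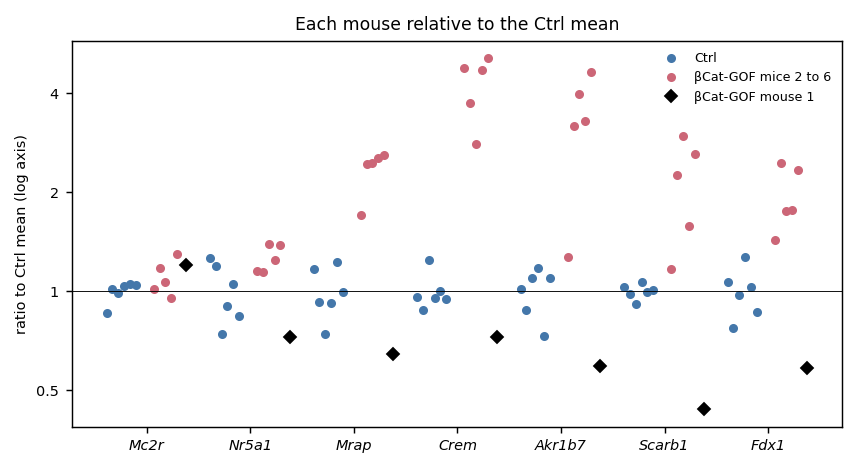
Normalized counts of 7 genes in each mouse, divided by the mean of the 6 Ctrl mice, on a log axis; blue points are Ctrl, red points βCat-GOF mice 2 to 6, and the black diamond βCat-GOF mouse 1. For *Mrap*, *Crem*, *Akr1b7*, *Scarb1* and *Fdx1* the red points lie above all blue points and the diamond below them, while for *Mc2r* and *Nr5a1* red and blue overlap.

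Adipocytes also express *Mrap*, and the adrenals had been trimmed of fat. The 9 adipocyte markers summed to 3531 to 18626 normalized counts in controls (median 6899) and to 4573 to 15910 in βCat-GOF mice (median 10511), and the ranges overlapped. None of the 8 markers tested was called with all 12 mice, 1 had an unadjusted p under 0.05, and none was at or near 0 in all mice. *Adipoq*, which encodes adiponectin, had a log2FC of -0.83 (SE 0.59, edgeR adjusted p = 0.453). *Plin1*, which encodes a lipid droplet protein, ran from 723 to 883 in the controls, with 655 and 599 normalized counts in βCat-GOF mice 1 and 2, and 1330 to 2022 in the other 4 (log2FC 0.64, SE 0.25, edgeR adjusted p = 0.166). Without βCat-GOF mouse 1, *Plin1* was the 1 adipocyte marker called (log2FC 0.79, SE 0.22, edgeR adjusted p = 0.0496). The control with the most adipocyte signal, mouse 4 at 18626, had 3398 normalized counts of *Mrap*, and the βCat-GOF mouse with the least, mouse 2 at 4573, had 6261. In βCat-GOF mouse 1, where *Mrap* was lowest, the sum was 5201, and in the 4 mice with the most *Mrap* it ran from 8313 to 15910. The part of adipocytes in the *Mrap* difference was not tested.

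Of 28 partners and neighbours of these factors in adrenal transcription, 25 passed the filter, 2 were called higher and 0 lower, beside 3.68% of all genes called. An unadjusted p under 0.05 was found for 8 of the 25, and for 20.4% of all genes. The median log2 fold change of the list was 0.14. *Nr2f1*, which encodes the orphan receptor COUP-TFI, ran from 229 to 295 normalized counts in Ctrl and from 360 to 434 in βCat-GOF mice, with no overlap (log2FC 0.59, SE 0.10, edgeR adjusted p = 0.0058). *Six4*, a homeobox factor, had 9.78 to 18.9 in controls and 22.1 to 58.0 in βCat-GOF mice, also without overlap (log2FC 1.30, SE 0.26, edgeR adjusted p = 0.0156). Unlike for *Mrap*, βCat-GOF mouse 1 was the highest of its group for both genes. Both were called in all 12 fits that left out 1 mouse. Of the other alternatives, *Nr2f1* was called in 8 of 8. *Six4*, whose counts were low, was called in 6 of the 7 that kept it.

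The paralogs *Gata2* and *Gata3*, which chromaffin cells of the medulla express, though not only they, were not called with all 12 mice. *Gata2* had 1364 ± 433 normalized counts in Ctrl and 765 ± 290 in βCat-GOF adrenals (log2FC -0.84, SE 0.26, edgeR adjusted p = 0.093), and *Gata3* 609 ± 216 and 340 ± 115 (log2FC -0.85, SE 0.28, edgeR adjusted p = 0.114). DESeq2 called both, with adjusted p of 0.0204 for *Gata2* and 0.0346 for *Gata3*. Without βCat-GOF mouse 1, *Gata2* alone of this pair was called (log2FC -1.06, edgeR adjusted p = 0.0172), while without Ctrl mouse 1 both were. Of the 12 fits that left out 1 mouse, *Gata2* was called in 2 and *Gata3* in 1. Of the 10 medulla markers, 9 had a lower mean in βCat-GOF adrenals and none was called, with sums of 80140 to 244385 in controls and 101289 to 193694 in βCat-GOF mice. Their part in the *Gata2* and *Gata3* values was not tested. Of 10 genes of gonadal-like cells, which in the adrenal of gonadectomized mice express *Gata4*, 4 passed the filter and 0 were called. Of these 4, 2 had an unadjusted p under 0.05, where 20.4% of all genes lay. *Amhr2*, the receptor for anti-Müllerian hormone, ran from 1.4 to 10.8 normalized counts in Ctrl and from 9.84 to 40.2 in βCat-GOF mice (log2FC 1.68, SE 0.46, edgeR adjusted p = 0.063). *Inhbb*, an inhibin and activin subunit, had 63.6 ± 22.5 and 110 ± 31.4 (log2FC 0.78, SE 0.27, edgeR adjusted p = 0.138), and without βCat-GOF mouse 1 it was called (log2FC 0.92, edgeR adjusted p = 0.0471). DESeq2 called *Amhr2*, with an adjusted p of 0.015. Of the 12 fits that left out 1 mouse, *Amhr2* and *Inhbb* were each called in 1. Of the other alternatives, *Amhr2* was called in 2 of 7 and *Inhbb* in 0 of 8.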

How the data were processed

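RNA from whole adrenals was measured by RNA-seq in 12 samples, 6 Ctrl and 6 βCat-GOF, grouped by the sample titles. Per the paper's methods, the authors trimmed reads with cutadapt, used STAR to align them to mm10, and took uniquely mapped reads into gene counts with featureCounts (version 1.4.4 in the submitters' processing notes). The annotation release and strand setting are not given in the sources used here. The deposited counts are whole numbers, and the deposited normalized signal is these counts divided by 1 factor per library: 100% of its values came out whole within 0.01, and the factors were 0.954 to 0.976 times those of DESeq2. Positions and lengths came from GENCODE M21 (GRCm38), in which 37693 identifiers were found.

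The whole table was fitted with edgeR 4.0.16 under R 4.3.3 (TMM, filterByExpr, quasi-likelihood test, two-sided). Adjusted p-values are Benjamini-Hochberg values over every gene kept by the filter. Standard errors are the log2 fold change divided by the root of F. Normalized counts use DESeq2 1.42.0 size factors. The exact permutation test of a gene went through all 924 ways to divide the 12 mice. Correlations used log2 CPM with a prior count of 2 and 100000 permutations within groups. Copies were sought with blastn 2.17.0. At these depths 3 counts are 0.117 to 0.222 CPM, a limit of counting error only. The scripts were tested on simulated data. Alternatives were DESeq2, its size factors in edgeR, other filters, 1 surrogate variable (sva 3.50.0), leaving out mice, and, chosen after seeing the data, the deposited factors.

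Members and lists were chosen with earlier results of these data known. Beside the 9 members, the text names up to 4 called genes of each list with the largest changes, or the 2 with the lowest p where none was called, and the genes most correlated with a member. *Gnas*, *Cyp11a1*, *Cyp11b2*, *Scarb1*, *Fdx1*, *Star*, *Adipoq* and *Plin1* and the melanocortin receptors were named after their values were seen. One gene of the steroidogenic list is counted but not reported here by name.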

Additional observations from a re-analysis of the deposited data

Results flagged for a closer look

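Of 18 sets of 6 mice (9 genes in 2 groups), 2 held a mouse whose distance from its neighbour exceeded Dixon's 95% critical value for 6 samples, where chance gives about 1 in 20 sets. *Mc2r* in Ctrl mouse 1 had 8255 normalized counts, and the next lowest control had 9527 (0.673 of the range). *Nr5a1* in βCat-GOF mouse 1 had 10947 normalized counts, and the next lowest βCat-GOF mouse had 17275 (0.627 of the range).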

How the results depend on the processing

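Of the alternatives 19 were distinct, since the fit without βCat-GOF mouse 5 served both as the one without its label number and as one that left out a mouse. The direction held under all 19 for 7 of the 9 genes, and no gene other than *Mrap* was called under any of them. *Mrap* was called in 7 of the 19. The count of 1 gene called higher, and of 1 past the study's cut-offs, became 0 with 1 surrogate variable (*Mrap* log2FC 0.86, edgeR adjusted p = 0.0704) and without βCat-GOF mouse 5, whose label has a number of its own (0.97, edgeR adjusted p = 0.0839). With each mouse left out in turn both counts ran from 0 to 1, and the log2FC of *Mrap* from 0.95 to 1.23. *Gata6* and *Cited2*, both near 0, changed sign under some alternatives. Without βCat-GOF mouse 5 they had a log2FC of -0.011 and 0.073, and over the fits that left out 1 mouse they ran from -0.027 to 0.084 and from -0.12 to 0.073.

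Among the pathway lists, the number of genes called moved by more than 1.5 times in these cases. DESeq2 called 2 steroidogenic genes, 2 paralogs and 2 gonadal-like genes. With 1 surrogate variable 0 steroidogenic genes, 4 transcription partners and 1 gonadal-like gene were called. A minimum of 10 counts in every mouse left 1 transcription partner, *Nr2f1*. Without the 3 samples whose label repeats a stem, βCat-GOF mouse 1 among them, the calls were 2 signaling genes, 3 steroidogenic genes, 1 transcription partner and 2 paralogs. Without βCat-GOF mouse 5 there were 0 steroidogenic genes. With each mouse left out in turn the calls ran from 1 to 2 for signaling, from 0 to 5 for steroidogenic genes (5 without βCat-GOF mouse 1), from 0 to 2 for paralogs (2 without Ctrl mouse 1) and from 0 to 1 for gonadal-like genes.

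Over all genes 551 were called, against 1244 by DESeq2, 955 without βCat-GOF mouse 1, 354, 360 and 287 without Ctrl mouse 4, 5 or 6, and 320 without βCat-GOF mouse 6. The cause of these moves was not tested. No paired analysis was possible because the mice were numbered only in the order of their deposition. Low counts limit *Nr5a2*, *Gata4* and *Mrap2*, which had 21 to 55, 27 to 115 and 22 to 191 reads per library.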
